A study of Mus musculus with 2 samples.

Results

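The hypoxia response and glycolysis genes are a group of 36 genes chosen by name, of which 18 encode enzymes of glycolysis or enzymes that set its rate, and 18 are other genes of the cell's response to low oxygen. Their RNA levels in intestinal epithelial preparations from WT mice and from mice lacking Lrrc19 were compared on Affymetrix mouse arrays, 1 for each genotype. Both groups were on the C57BL/6 background, 6 weeks old and kept specific pathogen free, and differed by label in the Lrrc19 genotype alone. Equal amounts of RNA from 5 mice (2 males and 3 females) made up each pool, so the spread between mice is unknown and no test or p-value is given. The Lrrc19 KO allele is not described in the labels, and LRRC19 is the leucine-rich repeat receptor of gut epithelium that the study was designed around. The cells had been shaken from the intestine in EDTA and passed through magnetic sorting against CD4 and CD8 cells, B cells, DCs, and macrophages.

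Cells sense oxygen through prolyl hydroxylases of the EGLN family, which mark the α subunits of hypoxia-inducible factor (HIF) for destruction by the VHL ubiquitin ligase when oxygen is plentiful. When oxygen is short, HIF-1α or HIF-2α persists, pairs with ARNT, and activates genes for glycolysis, lactate production, blood vessel growth, and the slowing of mitochondria. The gut epithelium sits next to the anaerobic lumen and is known as a tissue of low oxygen tension, steepest toward the surface of the colon. HIF activity there depends mostly on the stability of the α subunit proteins, which an RNA array does not measure.

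Of the 36 genes, 32 had a probe set assigned to that gene alone in the platform annotation. A floor of 127, the median intensity of all probe sets that were not controls, marked what could be read. With a gene represented by its brightest probe set, 31 of the 32 reached the floor in at least 1 pool. Only the regulator Pfkfb3, which makes the activator of phosphofructokinase, stayed under it, with 95.9 in WT and 93.8 in KO. Gpi1 and Eno1 had no named probe set and were not analyzed here. Gapdh was read only by Affymetrix control probe sets and by probe sets shared with pseudogenes, and Bnip3l only by probe sets shared with a pseudogene, so they are described but not counted.

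Lrrc19 itself read 905 for WT and 212 for KO on its brighter probe set, and 391 and 20.9, the latter under the floor, on the other. Epithelial markers were bright in both pools (12 of 12 at the floor, summed intensity 114895 in WT and 117950 in KO), but so were those of smooth muscle (10 of 10, 60199.6 and 79102.6). All 18 hybridization spike-in probe sets, of bacterial and phage transcripts added after labeling, gave higher intensities for KO (median log2 difference 0.50), and the scaling of one array against the other is not stated. A common offset of that size would move every log2 difference below by the same amount. Because these are bulk samples, fewer cells of a type and less RNA per cell cannot be told apart.

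The promoters of the genes that differed most are shown first, because the largest differences below are theirs. Each sequence is the 250 bases before the RefSeq start on GRCm38.p6, written 5′ to 3′ on the gene's strand, with the core of the hypoxia response element, ACGTG or GCGTG on either strand, in capitals, the letters that HIF is known to bind. Hif1a lies at chr12:73907617-73907866 on the plus strand, Egln3 at chr12:54203875-54204124 on the minus strand, Hk2 at chr6:82774455-82774704 on the minus strand, and Adm at chr7:110627407-110627656 on the plus strand.
Hif1a: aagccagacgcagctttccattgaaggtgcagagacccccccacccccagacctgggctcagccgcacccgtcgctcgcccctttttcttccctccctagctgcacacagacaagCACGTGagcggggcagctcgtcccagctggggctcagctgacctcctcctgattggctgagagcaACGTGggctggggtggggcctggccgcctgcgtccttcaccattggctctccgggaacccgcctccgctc
Egln3: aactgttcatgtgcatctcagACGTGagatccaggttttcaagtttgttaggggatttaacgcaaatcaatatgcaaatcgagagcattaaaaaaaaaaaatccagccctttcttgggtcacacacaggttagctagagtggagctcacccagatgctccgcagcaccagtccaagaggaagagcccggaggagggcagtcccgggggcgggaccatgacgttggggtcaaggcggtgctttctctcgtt
Hk2: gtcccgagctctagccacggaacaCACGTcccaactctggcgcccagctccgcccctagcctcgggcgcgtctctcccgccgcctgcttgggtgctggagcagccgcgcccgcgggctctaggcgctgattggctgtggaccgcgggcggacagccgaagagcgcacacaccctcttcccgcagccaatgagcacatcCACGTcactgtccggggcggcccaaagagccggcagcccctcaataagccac
Adm: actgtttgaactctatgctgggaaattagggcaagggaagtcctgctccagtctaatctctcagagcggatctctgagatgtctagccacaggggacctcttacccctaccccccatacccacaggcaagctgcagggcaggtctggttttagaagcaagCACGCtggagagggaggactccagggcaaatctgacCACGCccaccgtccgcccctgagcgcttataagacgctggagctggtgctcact

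The Hif1a promoter held 3 matches, of which 2 overlap in the palindrome CACGTG, 135 bases before the start, and the third lies 70 bases before it. The palindrome is also the E-box read by MYC and clock factors, so its letters do not belong to HIF alone. Egln3 held 1 match, 229 bases before its start, Hk2 held 2 and Adm held 2. Promoters were found for 32 of the 36 genes (50 starts in all), and 29 of the 32 had a match in at least 1 of them. The exceptions were Eno2, Gpi1, and Tpi1. Among all 27025 genes with a promoter 41.5% had a match, and among those measured at or above the floor 59.6% did. Member promoters and those of measured genes had the same median number of CG dinucleotides (14), against 6 over all promoters. They also had the same median number of matches per promoter (1), against 0 over all promoters. Among members, the most matches (5) were in a promoter of Ldha (log2 difference 0.17) and that of Bnip3 (0.49). Several members have more than 1 start, which gives them more chances of a match. A match is a description of these letters and not a binding site.

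The KO pool held about 2-fold more signal for Hif1a and Egln3, and less than 2-fold more or less for the other 29 measured genes. Over all 12518 genes measured, 0.567% were at least 2-fold higher and 0.431% at least 2-fold lower in the KO pool. Among the 31 members 2 were higher and 0 were lower. At 1.5-fold, 4 members were higher, namely Hif1a, Egln3, Hk2, and Adm, and 0 were lower, against 2.8% and 3.42% of all genes. The median log2 difference, KO over WT, was 0.18 for the 14 glycolytic enzymes and 0.22 for the 17 other hypoxia genes, against 0.01 for all genes, whose middle 50% lay between -0.18 and 0.19. Of the glycolytic enzymes 11 of 14 were above 0 and of the other hypoxia genes 15 of 17, beside 52.1% of all genes. With the arrays centred on the spike-ins, these medians became -0.32 and -0.28 and that of all genes -0.49. Both lists stayed above the median of all genes. That order is no test of the scaling, because the same amount was taken from every log2 difference. The counts changed as well in that setting: 0 members were 2-fold higher, 2 (Hif1a and Egln3) were 1.5-fold higher, and 5 (Aldoc, Mxi1, Ndrg1, Pdk1, and Pfkl) were 1.5-fold lower. The signs of both list medians, and which members pass 2-fold or 1.5-fold, therefore depend on the scaling. Hif1a, Egln3, Hk2, and Adm stayed above 0 in that setting, and the 5 lower members were already below 0 as reported.

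**Figure D1:**
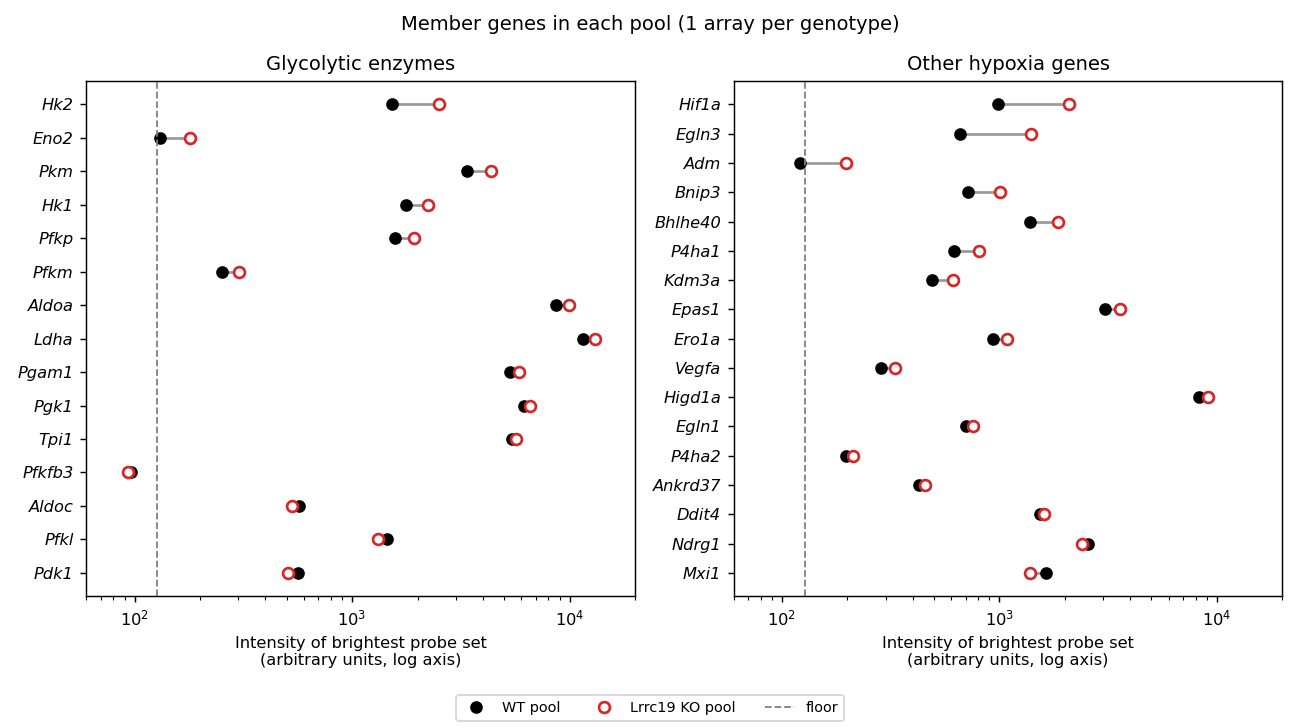
Intensity of the brightest probe set of each member (log axis, arbitrary units) with WT as filled and KO as open symbols, glycolytic enzymes at left and other hypoxia genes at right. Each symbol is a single array, so errors cannot be drawn, and the floor of 127 is dashed. The widest gaps are those of Hif1a (984 and 2096) and Egln3 (656 and 1396), and Pfkfb3 lies under the floor in both pools.

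Hif1a encodes HIF-1α, the oxygen-regulated subunit that drives most of the glycolytic response. Its brightest probe set gave 984 in WT and 2096 in KO, a 2.13-fold difference (log2 1.09). The next brightest gave 460 and 919 (log2 0.998, just under 2-fold), and another 265 and 593 (log2 1.16). The KO value was higher on all 3 by a similar amount, and they spanned 0.16 on the log2 scale. Over all 5007 genes with at least 2 probe sets at the floor, the median span of these log2 differences was 0.26. One more Hif1a probe set stayed under the floor, with 58.5 and 64.9, and averaging it in brought the log2 difference to 0.85, below 2-fold. By the brightest probe set Hif1a stood 50th from the top among the genes measured and Egln3 51st.

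The sensors that act on HIF-1α were split. Egln3 encodes PHD3, a prolyl hydroxylase that HIF itself induces. One probe set gave 656 in WT and 1396 in KO (2.13-fold, log2 1.09) and the other 578 and 1236 (2.14-fold, log2 1.10). Every probe set of Egln3 was therefore at least 2-fold higher in the KO pool, which was true of 11 of the 5007 genes with several readable probe sets (0.22%, a count chosen after the values were seen). Egln1 encodes PHD2, the main oxygen sensor of most cells, and differed far less, with 701 and 758 on one probe set (log2 0.11) and 495 and 523 on the other (log2 0.08). Epas1 encodes HIF-2α, which controls iron uptake in the gut, and gave 3050 and 3584 (log2 0.23), so the 2 α subunits differed by unequal amounts.

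The rest of the sensing machinery lay near 0. Of 16 listed genes for HIF partners, oxygen sensors, and the VHL complex, 15 were measured and 0 passed 1.5-fold in either direction, with a median log2 difference of 0.07. The largest differences were those of the HIF-1α partner Arnt (499 in WT and 655 in KO, log2 0.39), the coactivator Crebbp (1073 and 1392, log2 0.38), and the ubiquitin ligase Siah2, which degrades PHD proteins (193 and 153, log2 -0.34). Vhl gave 566 and 668 (log2 0.24), and Egln2, the remaining hydroxylase of the family, 979 and 868 (log2 -0.17).

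**Figure D2:**
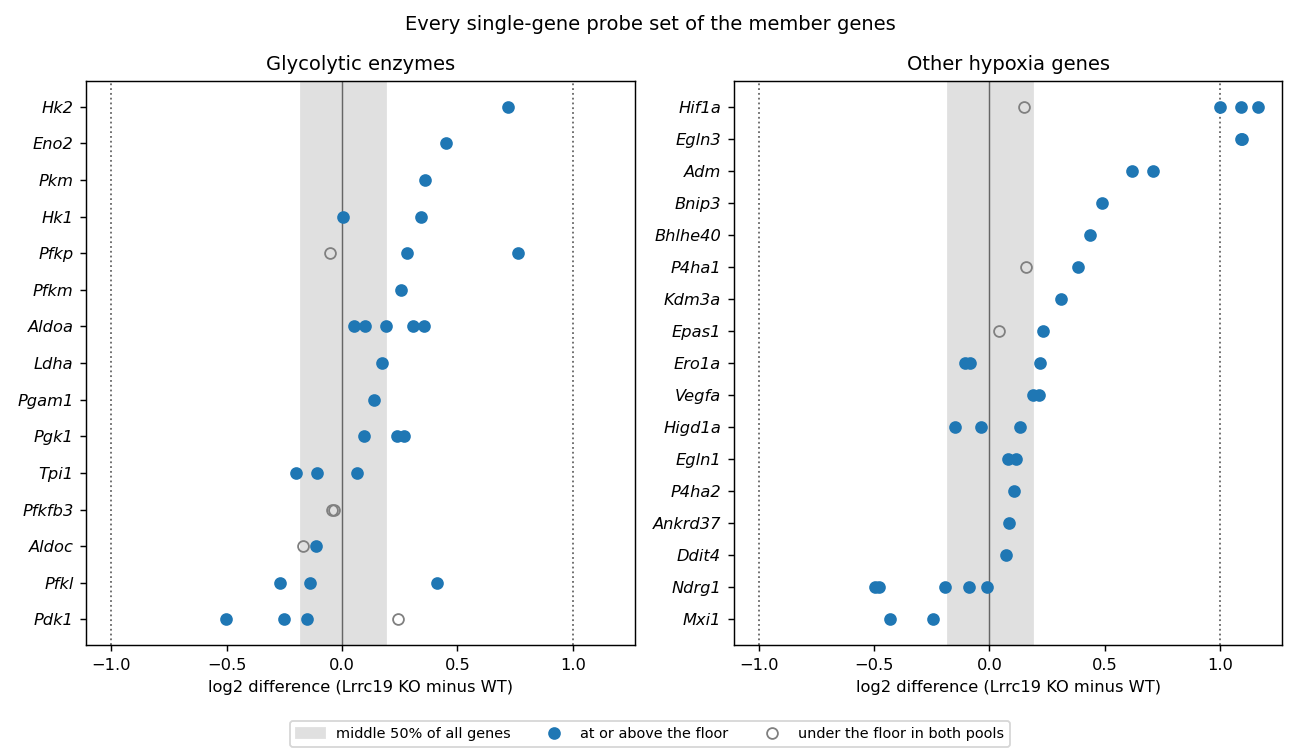
Log2 difference (Lrrc19 KO minus WT) of every single-gene probe set of the members, filled where it reached the floor in at least 1 pool and open where it did not. The gray band is the middle 50% of all genes (-0.18 to 0.19) and dotted lines mark 2-fold. The 3 readable probe sets of Hif1a and both of Egln3 lie at or near the line of 2-fold. Pfkl, Tpi1, Ero1a (listed as Ero1l), and Higd1a have filled symbols on both sides of 0. Pdk1 and Pfkp lie on both sides only when their open symbols are included.

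The secreted factors and the regulators of mitochondria and autophagy among the hypoxia genes were mostly higher in KO by small amounts. Adm encodes adrenomedullin, a peptide that dilates vessels and tightens endothelial junctions. It was dim, with 121 in WT, under the floor, and 198 in KO. Counting WT at the floor, it was at least 1.55-fold higher on this probe set. Its other probe set gave 112, also under the floor, and 172 (1.54-fold without that bound). The brighter probe set fell to log2 0.21 with the arrays centred on the spike-ins. Vegfa, the main growth factor of blood vessels, gave 286 and 332 (log2 0.22) and 257 and 293 (log2 0.19). Markers of endothelium, the cells these factors act on, had a median log2 difference of 0.04 over 10 of 12 genes at the floor (summed intensity 3900.95 in WT and 3931.97 in KO), and none of the 12 was at 0.

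Bnip3 and Bnip3l are paralogs that mark mitochondria for autophagy, and they ran in opposite directions as reported. Bnip3 gave 720 in WT and 1008 in KO (log2 0.49). It fell to log2 -0.01 with the arrays centred on the spike-ins, so the opposite directions depend on the scaling. The 3 probe sets of Bnip3l, all shared with a pseudogene, gave 2283 and 2061 (log2 -0.15), 757 and 601 (log2 -0.33), and 279 and 203 (log2 -0.46). Higd1a, which adjusts the respiratory chain, gave 8295 and 9091 on its brightest probe set (log2 0.13) but was lower in KO on both of the others (850.0 and 829, 497 and 448).

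Genes that restrain growth or transcription were mixed. Bhlhe40, a repressor under both HIF and clock control, gave 1376 in WT and 1860 in KO (log2 0.44). Ddit4, which inhibits mTORC1, gave 1531 and 1610 (log2 0.07). Mxi1, an antagonist of MYC, was the lowest of the hypoxia genes, with 1641 and 1387 (log2 -0.24), and its second probe set was lower too (216 and 161, log2 -0.43). Ndrg1, a differentiation-associated gene that is strongly hypoxia-responsive in many cell lines, was lower in KO on each of its 5 probe sets. Its brightest gave 2560 and 2406 (log2 -0.09), and the log2 differences of the 5 ran from -0.50 to -0.01.

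Hypoxia genes of protein folding, collagen, and chromatin differed by less than 1.5-fold. P4ha1 and P4ha2, the catalytic subunits of collagen prolyl hydroxylase, gave 615 in WT and 803 in KO (log2 0.38) and 198 and 213 (log2 0.11). Ero1l (Ero1a in RefSeq), the oxidase that forms disulfide bonds in the endoplasmic reticulum, gave 935 and 1089 (log2 0.22) on its brightest probe set, and its other probe sets lay slightly below 0 (log2 -0.10 and -0.08). Kdm3a, a histone H3 lysine demethylase, gave 492 and 609 (log2 0.31). Ankrd37, a small ankyrin protein that is a direct HIF-1 target, gave 429 and 455 (log2 0.09). Apart from Hif1a and Egln3, the 15 other measured hypoxia genes were all under 2-fold.

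Among the measured glycolytic members, Hk2 of the first step differed most. Hexokinase traps glucose in the cell, and its inducible form Hk2 gave 1530 in WT and 2515 in KO (1.64-fold, log2 0.72) on its single probe set. Hk1, the constitutive form, gave 1763 and 2232 (log2 0.34) on its brighter probe set and 149.7 and 150.02 on the other, and a probe set shared with ribosomal protein genes gave 6832 and 7629. Further hexokinase genes outside the group, Hk3 (385 and 379) and Hkdc1 (1165 and 986, log2 -0.24), were not higher in KO. Isozymes of this step thus ran from -0.24 to 0.72 on the log2 scale.

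Phosphofructokinase, the committed step, is built from liver, muscle, and platelet subunits. Pfkp, the platelet subunit, gave 1582 in WT and 1924 in KO (log2 0.28) on its brightest probe set. Another gave 80.2, under the floor, and 136 (log2 0.76). One more stayed under the floor in both pools (66.9 and 64.6, log2 -0.05). Pfkm, the muscle subunit, gave 252 and 301 (log2 0.26). Pfkl, the liver subunit, gave 1453 and 1321 (log2 -0.14), although its 3 probe sets ran from -0.27 to 0.41. The direction of Pfkl is therefore not settled by the array itself. Of the other regulators that make or remove fructose 2,6-bisphosphate, Pfkfb4 gave 513 and 657 (log2 0.36) and Pfkfb2 621 and 601 (log2 -0.05).

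The enzymes that split and oxidize the sugar were bright and close to equal. Aldoa, the main aldolase, was higher in KO on each of 5 probe sets, with 8702 in WT and 9939 in KO on the brightest (log2 0.19) and log2 differences from 0.05 to 0.35. Aldoc, the brain aldolase, gave 570 and 528 (log2 -0.11). Tpi1, which interconverts the triose phosphates, gave 5419 and 5662 (log2 0.06), while its other probe sets were lower in KO (4097 and 3573, 2722 and 2524).

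Gapdh, which couples oxidation of the triose to NADH and is often used as a loading control, gave 9710 in WT and 9974 in KO on the 3′ control probe set (log2 0.04), 8081 and 7596 on the middle one (log2 -0.09), and 7729 and 6648.5 on the 5′ one (log2 -0.22). The 3′ to 5′ ratio of Gapdh was 1.26 in WT and 1.5 in KO. That of Actb was 1.75 and 1.77. The brightest shared Gapdh probe set, which carries 5 gene symbols, gave 12898 and 12695 (log2 -0.02). Whether RNA integrity moved the difference of any member was not tested.

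The lower part of the pathway, where ATP is made, was slightly higher in KO. Pgk1, phosphoglycerate kinase, gave 6170.0 in WT and 6601 in KO (log2 0.10), with log2 differences of 0.24 and 0.27 on its other probe sets. Pgam1, phosphoglycerate mutase, gave 5334 and 5865 (log2 0.14). Pkm, the pyruvate kinase of most proliferating cells, gave 3382 and 4335 (log2 0.36), and Pklr, the liver and red cell form, 298 and 287 (log2 -0.05). Eno2, the neuronal enolase, was dim at 131 and 180 (log2 0.45). Markers of enteric neurons and glia had a median log2 difference of 0.33 over 8 of 12 genes at the floor (summed intensity 2006.96 in WT and 2449.72 in KO, none at 0), and their part in the Eno2 value was not tested.

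At the branch point of pyruvate, the enzyme of lactate and the kinase that closes the mitochondrial route differed in direction as reported. With the arrays centred on the spike-ins both were below 0 (Ldha log2 -0.32 and Pdk1 log2 -0.65). Ldha, the lactate dehydrogenase subunit induced by HIF-1, gave 11584 in WT and 13053 in KO (log2 0.17), and Ldhb, the subunit typical of heart, 504 and 606 (log2 0.26). Pdk1, which shuts pyruvate dehydrogenase under hypoxia, was lower in KO on each of the 3 probe sets that reached the floor, with 563 and 506 (log2 -0.15), 559 and 395 (log2 -0.50), and 363 and 306 (log2 -0.25). One more Pdk1 probe set, under the floor, ran the other way (48.2 and 57.2). Of 12 measured genes of pyruvate dehydrogenase, its other kinases and phosphatases, and the pyruvate carrier, 0 passed 1.5-fold and the median log2 difference was 0.00. The largest were Mpc1, of the mitochondrial pyruvate carrier (3368 and 2631, log2 -0.36), Pdk3 (418 and 338, log2 -0.31), and Pdp1 (174 and 215, log2 0.31).

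**Figure D3:**
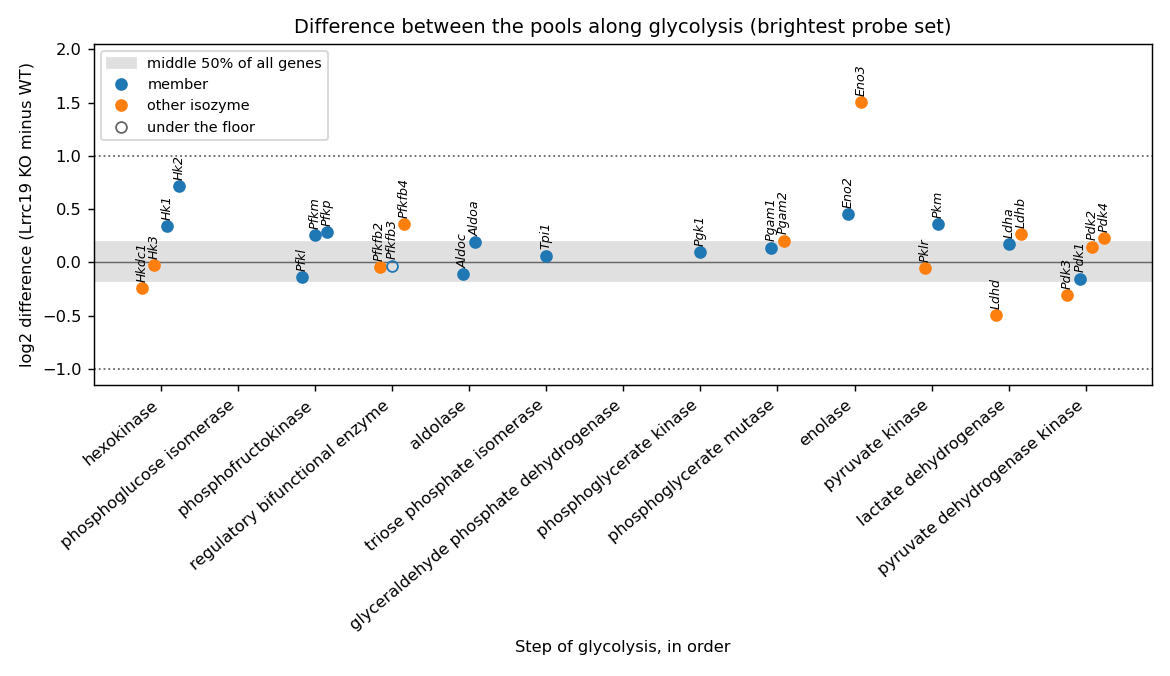
Log2 difference (Lrrc19 KO minus WT) of the brightest probe set of each glycolytic gene, placed by step from hexokinase to pyruvate dehydrogenase kinase, with members in blue, other isozymes in orange, and Pfkfb3, under the floor, as an open circle. The gray band is the middle 50% of all genes and dotted lines mark 2-fold. Most members lie between -0.15 and 0.45, Hk2 is at 0.72, and the isozyme Eno3 (1.51) lies above 2-fold. The steps of Gpi1 and Gapdh hold no counted gene.

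The pathway genes beyond the members gave a few larger differences. Of 16 other isozymes and regulators of glycolysis that were measured, 1 was at least 2-fold higher and 0 were lower, with a median log2 difference of -0.03. This was Eno3, the muscle enolase, with 403 in WT and 1144 in KO (2.84-fold) on its single probe set. Ldhd, which acts on D-lactate, gave 249 and 176 (log2 -0.49), and Galm, the galactose mutarotase, 1028 and 1325 (log2 0.37). Skeletal muscle markers reached the floor for 2 of 10 genes (summed intensity 1405.08 and 1700.36), and all 10 of smooth muscle were higher in KO, with a median log2 difference of 0.37. Their part in the values of Eno3, Pfkm, and Pkm was not tested.

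Glucose and lactate carriers had a median log2 difference of 0.26 over 8 measured genes, and 0 passed 1.5-fold. The HIF-responsive carrier Slc2a1 (GLUT1) gave 2484 in WT and 3582 in KO (log2 0.53), Slc2a3 192 and 265 (log2 0.46), and the lactate exporter Slc16a3 171 and 220 (log2 0.37). Bsg, the chaperone of the lactate carriers, was lower in KO (5541 and 4300, log2 -0.37). The 10 measured genes of gluconeogenesis and glycogen had a median of -0.22, the lowest of the pathway lists. Of these, pyruvate carboxylase Pcx was at least 2-fold higher (240 and 583, 2.42-fold), and 0 were 2-fold lower. Control probe sets for Pcx at the floor gave smaller log2 differences. The brightest, brighter than the counted one, gave 619 and 695 (log2 0.17). The others gave 239 and 257 (log2 0.10) and 180 and 328 (log2 0.87). The 2-fold call of Pcx therefore rests on 1 probe set. Pck2, the mitochondrial PEP carboxykinase, gave 401 and 231 (log2 -0.80), and Fbp2, a fructose bisphosphatase, 2126 and 1428 (log2 -0.57).

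The list of other known HIF targets lay close to all genes. Of 44 measured, 0 passed 2-fold, 4 passed 1.5-fold upward and 0 downward, and the median log2 difference was 0.02, with 23 of 44 above 0. The 4 were Cd55, a complement inhibitor of the epithelial surface (489 in WT and 873 in KO, log2 0.84, from 0.57 to 1.91 over its probe sets), the ubiquitin ligase adaptor Wsb1 (618 and 1037, log2 0.75), the vasoconstrictor peptide Edn1 (167 and 280, log2 0.75), and the collagen lysyl hydroxylase Plod2 (204 and 314, log2 0.62). Targets known from epithelium ran both ways, with the carbonic anhydrases Car4 (6274 and 8359, log2 0.41) and Car9 (1186 and 977, log2 -0.28) on opposite sides of 0 and the trefoil peptide Tff3 lower in KO (6944 and 5089, log2 -0.45). The lists overlap, so some targets were counted elsewhere too, such as Slc2a1 among the carriers, Kdr among endothelium markers, and Car4 among colon markers. Iron genes under HIF-2 lay near 0 (median log2 difference -0.03 over 5 measured genes), with ferritin Fth1 at 14789 and 12156 (log2 -0.28), the oxidase Heph at 2020 and 2253 (log2 0.16), and the transferrin receptor Tfrc at 4129 and 3924 (log2 -0.07).

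**Figure D4:**
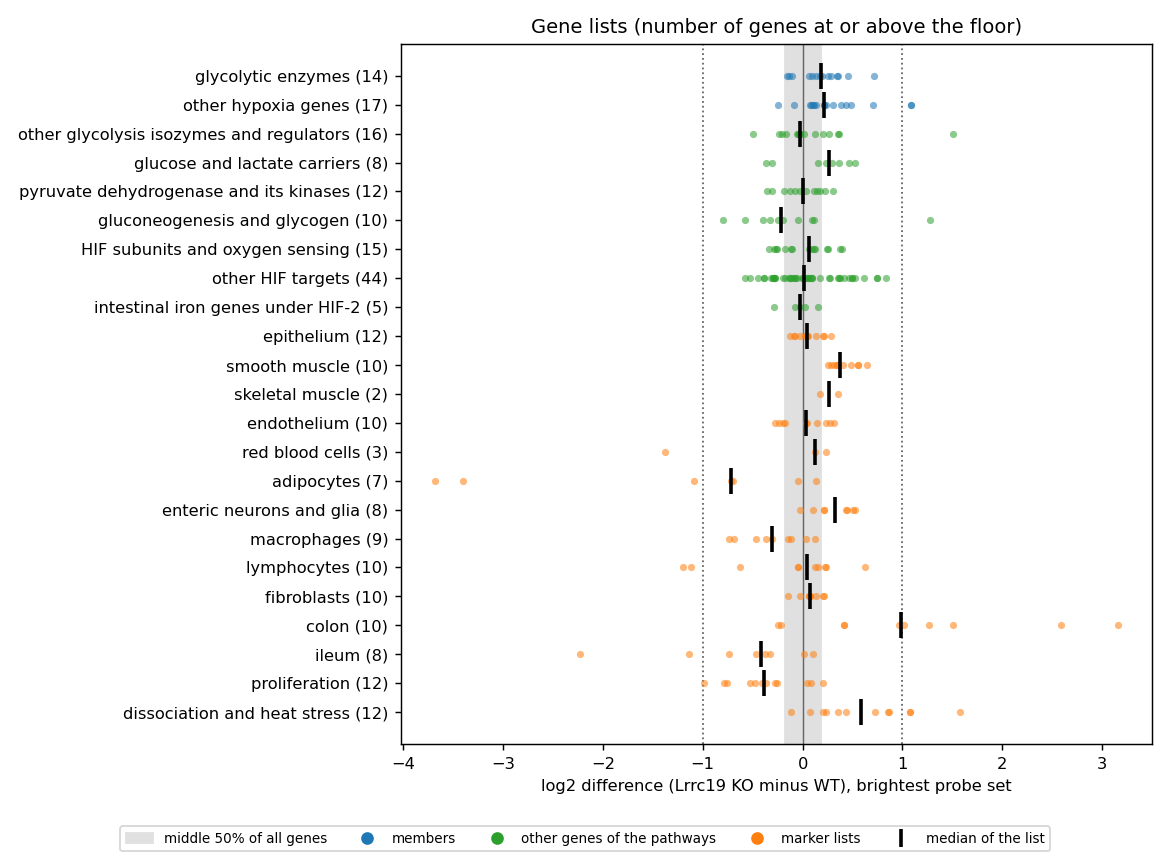
Log2 difference (Lrrc19 KO minus WT) of each gene at or above the floor in the member lists (blue), the other pathway lists (green), and the marker lists (orange), with the median of each list as a black bar and the number of genes in parentheses. The gray band is the middle 50% of all genes. Both member lists lie just right of the center, glucose and lactate carriers likewise (0.26), and the colon list (0.99) and the dissociation and heat stress list (0.58) lie farther right.

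Several marker lists differed between the pools by more than the hypoxia and glycolysis genes did. Colon markers had a median log2 difference of 0.99 over 10 of 12 genes at the floor (summed intensity 63080.2 in WT and 76641.5 in KO). Those past 2-fold were the proton pump subunit Atp12a (531 and 4760.2), the water channel Aqp8 (2019 and 4873), the acute phase gene Saa1 (5585 and 11265), and the posterior homeobox genes Hoxb13 (259 and 738) and Hoxd13 (42.4, under the floor, and 255), while the brightest, Car1, was lower in KO (22420.1 and 18909). Ileum markers had a median of -0.42 over 8 of 10 (11873 and 7030.85). The antimicrobial lectin Reg3g (4707 and 1000.4) and the transcription factor Osr2 (472 and 215) were past 2-fold. Reg3g was the brightest of this list in WT and so weighs most on the WT sum. Slightly higher in KO were 2 of the 8, Mep1b (2783 and 2809) and Bcl2l15 (230 and 247). Genes of dissociation and heat stress had a median of 0.58 over 12 of 13 (22121 and 31708), with the heat shock genes Hspa1b (1792 and 5344) and Hspa1a (229 and 484) and the stress factor Atf3 (604 and 1271) past 2-fold. Proliferation genes had a median of -0.39 over 12 of 14 (12420.6 and 9797.65). Macrophage markers were at -0.31 over 9 of 12 (10416.7 and 8583.05), and adipocyte markers at -0.71 over 7 of 12 (7667.47 and 3250.62). Past 2-fold were Adipoq (313 and 24.4), Car3 (2941 and 278), and Fabp4 (1372 and 648), and Car3 weighs most on the WT sum. Of the 7 adipocyte markers, only Cidec was higher in KO (276 and 304), and Pck1 was nearly equal (721 and 698). Medians nearer 0 were those of lymphocyte markers (0.04 over 10 of 12, 4262 and 3416), fibroblast markers (0.07 over 10 of 10, 30825 and 32182), and red cell markers (0.12 over 3 of 12, 823 and 686). Single members of these lists were nonetheless more than 2-fold lower in KO. They were the granzymes Gzma (1278 and 587) and Gzmb (420 and 184) and the globin Hbb-b2 (250.3 and 96.5). Of the other lymphocyte markers, Cd3g was past 1.5-fold lower (264 and 171) and Ms4a1 past 1.5-fold higher (108, under the floor, and 166). In the lymphocyte list 5 of the 10 were above 0. The part of intestinal region, of handling, and of these cell types in the Hif1a, Egln3, and Hk2 values was not tested, and with 1 pool per genotype they cannot be told apart from the genotype.

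The difference of Hif1a and Egln3 was then followed over the scalings. Set to the same median, the arrays gave a log2 difference of 1.01 for each. Quantile normalization gave 1.13 for each, and centring on 8 control genes gave 1.21. Centring on the spike-ins gave 0.59 for each, under 2-fold but still past 1.5-fold, where 0.429% of all genes were past 1.5-fold upward. The split of all genes past 2-fold, 71 higher and 54 lower as reported, became 53 and 79 at equal medians, 105 and 33 with the control genes, and 22 and 660 with the spike-ins. Hk2 was at 0.22 and Adm at 0.21 under that scaling.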

How the data were processed

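RNA of gut epithelial cells pooled from 5 mice per genotype was measured on 1 array each. The authors deposited linear intensities between 1 and 25842 for 45101 probe sets. RMA is named in the submitters' processing notes without a version, although it usually yields log2 values of equal distribution, and no source used here states how one array was scaled to the other. Values were set to at least 1 and log2 was taken (Python 3.11, pandas 2.3.3, NumPy 2.4.6). The 64 control probe sets were kept apart. Of the others, 34945 carried 1 gene symbol, 932 several, and 9160 none, and symbols were updated through gene identifiers with RefSeq (GRCm38.p6, 34741 matched). A gene was read from its brightest probe set of both arrays, which gave 18193 genes, of which 12518 reached the floor of 127 (50th percentile) in at least 1 pool.

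With 1 array for a genotype no test could be made, and precision is limited by that number. Genes were counted as higher or lower at 2-fold and at 1.5-fold. Every member was named, with the genes past 2-fold of 7 pathway lists, or the 3 largest differences where fewer than 3 passed. Of 14 marker lists, genes past 2-fold were named, and of the other bright markers only Car1 and Mep1b. Further genes of those lists were named after their values were seen. The members and lists were chosen with earlier results of these data known. Promoters were taken from RefSeq, and the counting step was tested on simulated data. The simulated differences were well past 2-fold, with little noise and in genes well above the floor. That test therefore does not bear on members near 2-fold or near the floor. The alternatives were 4 scalings, the mean of all probe sets, leaving out probe sets ending in _s_at or _x_at, 3 floors, a pseudocount of 32, and setting low values to the floor. A change of a single gene under the robust SD of all genes (0.27), and of a list median under 0.1, was taken as no change, since there were no replicates.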

Additional observations from a re-analysis of the deposited data

How the results depend on the processing

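No paired analysis was possible because each genotype had 1 array. Neither list median changed sign except with the arrays centred on the spike-ins, where they were -0.32 (glycolytic enzymes) and -0.28 (other hypoxia genes). In that setting 0 members were 2-fold higher, 2 were 1.5-fold higher, and 5 (Aldoc, Mxi1, Ndrg1, Pdk1, and Pfkl) were 1.5-fold lower, because 0.50 was taken from every log2 difference. Centring on the 8 control genes, which added 0.12, gave medians of 0.30 and 0.34. With all probe sets of a gene averaged, 1 member, Egln3, was 2-fold higher. Elsewhere the counts stayed within 1.5 times those reported and the medians moved by less than 0.1. Adding the 3′ control probe set of Gapdh and the brightest shared probe set of Bnip3l, a setting chosen after the data were seen, gave medians of 0.17 and 0.22. Of 334 values of single members over 11 alternatives, 31 moved by more than 0.27, all of them with the spike-ins. Much of that count was fixed in advance and is no check of stability. A change of floor leaves a log2 difference as it was, and the equal-median and control-gene shifts (0.08 and 0.12 in size) are under 0.27. The spike-in shift of 0.50 is above it and is the same for every gene. With 1 pool per genotype, small differences such as those of most members have no replicate check.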
